A study of Mus musculus with 10 samples.

Results

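Genes that gate entry into the cell cycle were followed through early T cell differentiation, chosen by name as the D-type cyclins (*Ccnd1*, *Ccnd2*, *Ccnd3*), their kinases (*Cdk4*, *Cdk6*) and the inhibitors of these kinases (*Cdkn1a*, *Cdkn1b*, *Cdkn2a*, *Cdkn2c*, *Cdkn2d*). They are 10 of the 24062 genes in the count tables, and all 10 passed the filter that left 12221 genes for testing. RNA was sequenced from LSK cells (Lin-SCA1+KIT+ marrow progenitors of C57BL/6J mice) grown with SCF, FLT-3 ligand, IL-6 and IL-11 on plastic coated with a high density of Delta1, a Notch ligand, or with human IgG1, each at 5 µg/mL. The Delta1 cultures gave 3 sorted stages with 2 libraries each (replicate 1 and replicate 2, which carry the earlier and the later date in their labels): DN1 (KIT++CD44+CD25-), DN2a (KIT++CD44+CD25+) and DN2b (KIT+CD44loCD25+). IL-7 (100 ng/mL) was present for DN2a and DN2b but absent for DN1. It was added at day 14, so DN2a and DN2b were also longer in culture than the day 14 control, and stage, cytokine and culture time cannot be told apart. The no Notch control was the IgG1 culture at day 14, with 4 libraries labeled D1, D2, R1 and R2, and no sort of these cells is described, so sorting and loss of the ligand cannot be told apart either. Replicates came from separate LSK isolates, and each isolate gave all 3 Delta1 stages, so that libraries of the same number in different stages were taken to share one.

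In the textbook scheme, D cyclins bind CDK4 or CDK6 and the complex phosphorylates the retinoblastoma protein, which frees E2F factors to switch on genes for DNA replication. The INK4 inhibitors (here *Cdkn2a*, *Cdkn2c* and *Cdkn2d*, for p16, p18 and p19) bind CDK4 and CDK6 themselves, while ARF, the other product of *Cdkn2a*, acts on MDM2 and p53, and the CIP/KIP inhibitors (*Cdkn1a* for p21, *Cdkn1b* for p27) bind cyclin-kinase complexes and are best known for holding CDK2. Cyclin D3 is known for its part in thymocyte expansion, cyclin D2 as a cytokine-responsive cyclin of lymphocytes, and p21 as a target of p53.

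*Cdk4* rose in every Delta1 stage over the no Notch control, by a log2FC (log2 fold change) of 1.50 to 1.85, and *Cdk6* did not pass the test in any of them. *Cdkn1a* was 7.15-fold lower in DN1 than in the control and 4.32-fold higher in DN2b than in DN1, a rise that was called in only 1 of the 10 refits with a library left out. *Ccnd1* and *Cdkn2d* fell in DN2b against the control, both with calls that did not survive the loss of some single libraries. *Ccnd2*, *Ccnd3*, *Cdk6*, *Cdkn1b*, *Cdkn2a* and *Cdkn2c* passed in no comparison.

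The sequences before the starts of *Cdk4*, *Cdk6* and *Cdkn1a* are shown because the first and the last changed and *Cdk6*, the paralog of *Cdk4*, did not pass. They are the 250 bases before each RefSeq start (build GRCm38.p6), on the strand of the gene, which is the plus strand for all 3 genes. Capitals mark CACGTG (the E-box bound by MYC and its relatives), GGGCGG (the GC box of SP factors, which reads CCGCCC on the other strand) and CATG, any 6 bases and CATG again (the core letters of a p53 site), searched on both strands with no overlap among these matches. The last pattern was added after the sequences were seen. The *Cdk4* window is chr10:127063285-127063534, the *Cdk6* window is chr5:3343643-3343892, and the windows of the upstream and downstream starts of *Cdkn1a* are chr17:29090729-29090978 and chr17:29093519-29093768.
Cdk4: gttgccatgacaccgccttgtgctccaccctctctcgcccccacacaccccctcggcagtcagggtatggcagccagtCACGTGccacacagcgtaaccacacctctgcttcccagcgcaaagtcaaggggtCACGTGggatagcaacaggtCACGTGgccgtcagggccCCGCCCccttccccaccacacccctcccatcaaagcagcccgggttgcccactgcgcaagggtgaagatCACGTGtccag
Cdk6: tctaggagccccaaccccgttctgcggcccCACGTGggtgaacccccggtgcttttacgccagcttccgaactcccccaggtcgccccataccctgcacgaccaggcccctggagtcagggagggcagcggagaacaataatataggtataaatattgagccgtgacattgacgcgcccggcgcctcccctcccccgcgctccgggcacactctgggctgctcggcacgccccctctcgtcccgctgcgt
Cdkn1a upstream start: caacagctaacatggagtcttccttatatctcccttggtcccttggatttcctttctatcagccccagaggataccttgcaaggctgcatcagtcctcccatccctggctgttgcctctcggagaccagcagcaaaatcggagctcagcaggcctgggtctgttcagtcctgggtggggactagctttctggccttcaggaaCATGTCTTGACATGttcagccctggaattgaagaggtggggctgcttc
Cdkn1a downstream start: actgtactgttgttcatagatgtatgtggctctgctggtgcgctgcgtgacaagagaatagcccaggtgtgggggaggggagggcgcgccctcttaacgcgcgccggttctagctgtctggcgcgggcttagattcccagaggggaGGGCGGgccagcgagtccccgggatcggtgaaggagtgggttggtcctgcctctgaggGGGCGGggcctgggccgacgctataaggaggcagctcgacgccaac

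The *Cdk4* window held 4 copies of CACGTG, beginning 172, 118, 98 and 11 bases before the start. At least 1 copy was present in 6.02% of the 32851 RefSeq promoter windows of this length, and at least 4 in 7 of them (0.0213%). The *Cdk6* window held 1 copy, 220 bases before the start, and the *Cdkn1a* windows held none. The upstream *Cdkn1a* window held the p53 core letters once, 48 bases before the start, a pattern found in 0.49% of all windows. The downstream window held GGGCGG at 104 and 46 bases before the start and the *Cdk4* window held it at 80, a motif of 32.7% of windows. Of the other letters searched, TGGGAA (the core of the site of CSL, the factor through which Notch acts; in 21.6% of windows) stood once in the *Cdk4* window and once in the downstream *Cdkn1a* window, and TATAAA (12.4%) once in the *Cdk6* window. The E2F letters TTTCCCGC (0.895%) and TTTGGCGC (0.417%) and the CCAAT box (33.8%) were in none of the windows shown. RefSeq windows were matched for 8 of the 10 members, and *Ccnd1* and *Ccnd2* had none in the table used here. A match of letters describes the window and says nothing of whether a factor was bound.

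Libraries held 12354635 to 35367925 reads on genes, and a gene with 3 counts stood at 0.0848 to 0.243 CPM (the count of a gene scaled to the total reads on genes of its library). The summed T lineage markers (10 genes, among them *Il2ra* and *Tcf7*) ran from 42.3 to 109 CPM for the control, 559 to 663 for DN1, 2291 to 3147 for DN2a and 3943 to 5053 for DN2b. *Notch1* made up most of the control sum (39.1 to 103.9 CPM) and was not called in any stage over the control. *Il2ra*, the gene for CD25, on which the stages were sorted, had means of 1392 CPM in DN2a and 1939 in DN2b. The control was rich in myeloid RNA: 8 granule genes summed to 22100 to 62040 CPM, against 94.7 to 3027 CPM for DN1, 21.3 to 41.0 for DN2a and 9.56 to 11.5 for DN2b, where *Elane* and *Ngp* were at 0 in both libraries. The 6 macrophage genes summed to 8281 to 15790 CPM in the control and to no more than 302 in any Delta1 library, with *Mmp12* and *Msr1* at 0 in both DN1 libraries. DN1 stood out in mast cell and basophil genes (7 genes, among them *Mcpt1* and *Cpa3*), at 9338 CPM in replicate 1 and 2380 in replicate 2, against 33.2 to 155 CPM in the control and 258 to 576 in DN2a and DN2b. *Mcpt1* made up most of this sum (mean of 4673 CPM in DN1), while *Mcpt8* and *Cma1* of the same list had means of 16.4 and 3.21 CPM in DN1 against 29.5 and 3.97 CPM in the control. DN1 replicate 1 also stood apart in 5 erythroid genes, at 116.5 CPM against 1.24 in replicate 2 and at most 3.40 in any other library. The part of these cell differences in the results on the members was not tested, and in bulk RNA fewer cells of a type and less RNA per cell cannot be told apart.

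*Cdk4* (chr10:127063534-127067920, plus strand, mm10) encodes the kinase that was the most abundant member per kilobase of exon in every group. Its level was 194, 248, 226 and 298 CPM in control libraries D1, D2, R1 and R2. It was 724 and 903 CPM for DN1, 937 and 883 for DN2a, and 908 and 765 for DN2b, in the order replicate 1 and replicate 2. The lowest Delta1 library stood at more than the highest control library, with no overlap between the control and any stage. The log2FC over the control was 1.50 ± 0.22 (SE) in DN1 (adjusted p = 0.00179 by the edgeR quasi-likelihood test, Benjamini-Hochberg adjusted across 12221 genes), 1.85 ± 0.22 in DN2a (adjusted p = 0.000437) and 1.73 ± 0.22 in DN2b (adjusted p = 0.000603). These are rises of 2.83-fold, 3.60-fold and 3.31-fold, and each call held when any 1 of the 10 libraries was left out, with log2FC values between 1.26 and 1.92. Between the Delta1 stages *Cdk4* differed by a log2FC of 0.35 ± 0.27 in DN2a versus DN1, -0.12 ± 0.27 in DN2b versus DN2a and 0.23 ± 0.27 in DN2b versus DN1, none of which passed. The 3′ part of *Cdk4* overlaps *Tspan31* on the opposite strand, and the strand setting of the counting is not given in the sources used here, so reads of that overlap are uncertain.

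*Cdk6* (chr5:3341485-3531008, plus strand) encodes the paralogous kinase and was far less abundant. It stood at 13.2, 20.6, 12.0 and 31.6 CPM for the control, at 14.8 and 33.9 for DN1, at 33.6 and 20.6 for DN2a, and at 39.7 and 26.3 for DN2b. Every stage overlapped the control. Its log2FC over the control was 0.12 ± 0.46, 0.43 ± 0.45 and 0.73 ± 0.45 in DN1, DN2a and DN2b (adjusted p = 0.865, 0.453 and 0.211). Per kilobase of exon *Cdk4* stood at 118 ± 21.2 CPM (SD, n = 4) and *Cdk6* at 1.68 ± 0.78 CPM for the control, and at 396 ± 61.8 and 2.11 ± 1.17 CPM for DN1 (SD, n = 2). In reads, *Cdk4* exceeded *Cdk6* 9.43 to 18.8 times in the control libraries and 22.9 to 48.9 times in the 6 Delta1 libraries, ranges that did not overlap. The ratio was described and not tested.

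**Figure D1:**
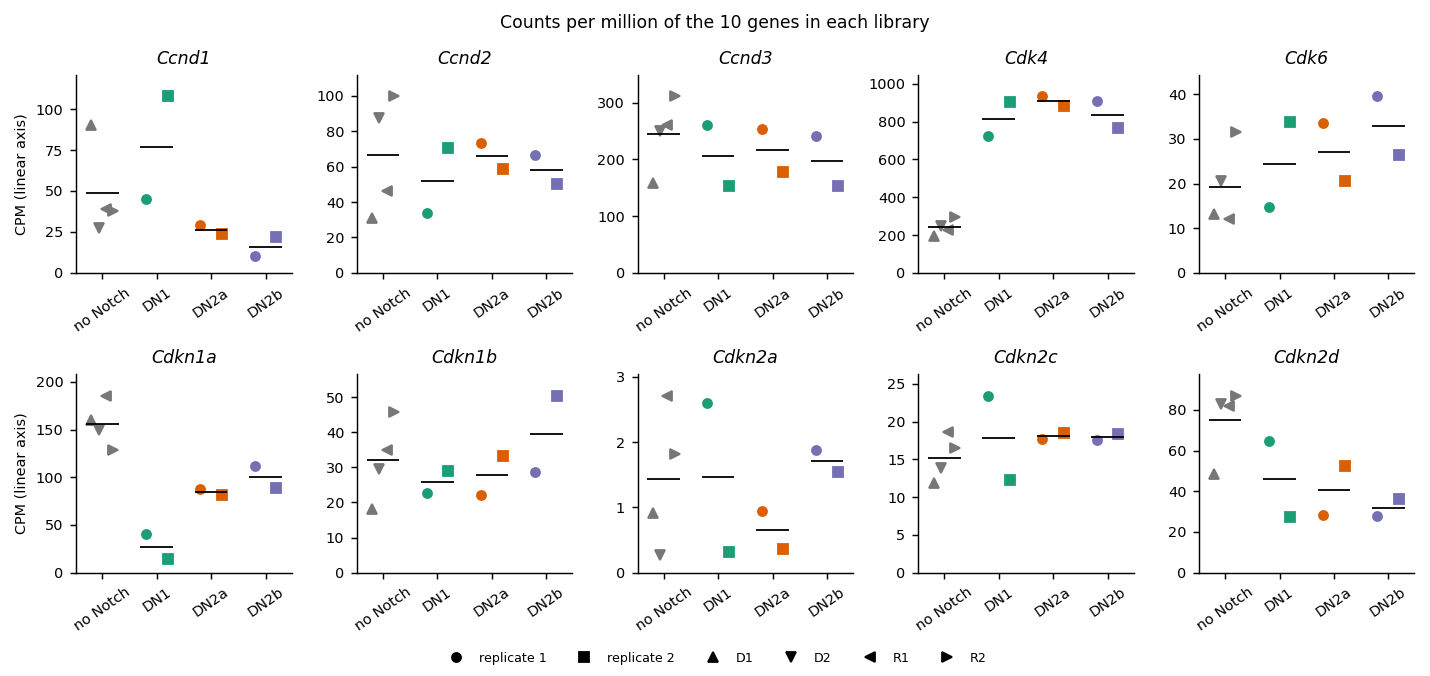
CPM (linear vertical axes that start at 0) of the 10 members in each of the 10 libraries, by group, with a bar at the group mean and a marker shape for each library label. *Cdk4* stands at 724 to 937 CPM in the Delta1 stages and 194 to 298 in the control, and *Cdkn1a* is lowest in DN1 (40.3 and 14.01 CPM).

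Cyclin D3 had the highest mean share of the D cyclin message in all 4 groups. *Ccnd3* (chr17:47505051-47599691, plus strand) stood at 159, 250, 261 and 312 CPM for the control, 261 and 153 for DN1, 254 and 179 for DN2a, and 241 and 154 for DN2b. The groups overlapped throughout, and in each stage replicate 1 was the higher. Its log2FC over the control was -0.52 ± 0.31 for DN1, -0.25 ± 0.31 for DN2a and -0.37 ± 0.31 for DN2b, none past the threshold. Divided by exon length, it made up 80.6% ± 7.6 of D cyclin reads in the control (SD, n = 4), 73.7% ± 17.6 for DN1, 83.8% ± 1.3 for DN2a and 85.6% ± 4.3 for DN2b (SD, n = 2). With the exon length of all annotated transcripts in place of the basic set, the control share was 61.2% and the DN1 share 52.8%, so the level of this share depends on the gene model. With that length *Ccnd1* exceeded *Ccnd3* in DN1 replicate 2 (48.03% and 36.35%) and in control library D1 (47.24% and 44.61%), and in reads not divided by length *Ccnd3* was 46.08% of the D cyclins in DN1 replicate 2. The last exon of *Ccnd3* overlaps *Bysl* on the opposite strand, and a *Ccnd3* pseudogene is annotated.

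The other D cyclins stood in one order in DN1 and in the opposite order in DN2a and DN2b, per kilobase. *Ccnd1* (chr7:144929931-144939925, minus strand), the cyclin classically induced by mitogens, stood at 90.6, 27.2, 39.0 and 37.8 CPM in the control and at 45.4 and 108 CPM in DN1. It stood at 29.2 and 23.7 CPM in DN2a and at 10.1 and 21.9 in DN2b. Both DN2b libraries lay under every control library, and both libraries of DN2a and of DN2b lay under both DN1 libraries. The log2FC was 0.39 ± 0.56 for DN1, -0.99 ± 0.59 for DN2a and -1.73 ± 0.62 for DN2b over the control (adjusted p = 0.630, 0.198 and 0.0487), so that only the 3.31-fold fall in DN2b passed. That call rested on its libraries: without control library D1, the highest, the log2FC was -1.16 (adjusted p = 0.0737), and without DN2b replicate 1 it was -1.29 (adjusted p = 0.263). It was also lost without DN2b replicate 2 (-2.33, adjusted p = 0.0721), R1 (adjusted p = 0.0637), DN2a replicate 1 (0.0714) or DN2a replicate 2 (0.0678). DN2b versus DN1 gave a log2FC of -2.11 ± 0.68 that missed the threshold (adjusted p = 0.188; 0.0418 by DESeq2, a call), with log2 CPM ratios of -2.16 between the libraries numbered 1 and -2.31 between those numbered 2. DN2a versus DN1 gave -1.37 ± 0.67 (adjusted p = 0.509), with -0.64 and -2.19 within the numbers. The 3′ end of *Ccnd1* overlaps *LTO1* on the opposite strand, so reads there are uncertain.

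*Ccnd2* (chr6:127125162-127152193, minus strand) showed no such gradient. It stood at 31.3, 87.5, 46.5 and 100 CPM for the control, 33.7 and 70.3 for DN1, 73.1 and 58.7 for DN2a, and 66.8 and 49.9 for DN2b. It overlaps antisense genes, as does *Cdk6*, with the same doubt on shared reads. All groups overlapped, and its log2FC over the control was -0.57 ± 0.47, -0.06 ± 0.46 and -0.23 ± 0.46 in DN1, DN2a and DN2b (adjusted p = 0.380, 0.920 and 0.700). In reads per kilobase, *Ccnd1* exceeded *Ccnd2* in both DN1 libraries (log2 ratio 1.27 and 1.47) and was below it in all 4 libraries of DN2a and DN2b (-1.88 to -0.35). The control libraries fell on both sides, from -0.84 to 2.38. The *Ccnd1* share of D cyclin reads per kilobase was 19.1% ± 13.2 for DN1, 6.79% ± 0.58 for DN2a, 5.06% ± 3.70 for DN2b (SD, n = 2) and 11.7% ± 9.4 for the control (SD, n = 4). The *Ccnd2* share lay between 7.17% and 9.42% as a group mean. These shares and ratios were not tested.

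**Figure D2:**
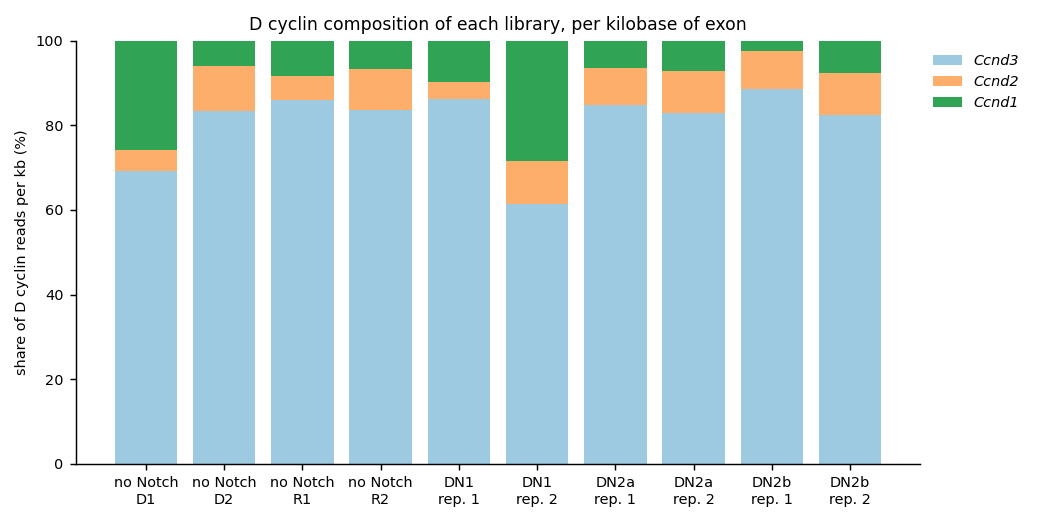
Share of each D cyclin in the D cyclin reads per kilobase of exon (percent, vertical axis), 1 bar per library. *Ccnd3* takes 61.3% to 88.6% of every bar, and the *Ccnd1* part is largest in DN1 replicate 2 (28.4%) and control library D1 (25.8%).

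The summed D cyclin level per kilobase was 123 ± 24.0 CPM for the control (SD, n = 4), 113 ± 15.7 for DN1, 105 ± 24.2 for DN2a and 93.6 ± 24.7 for DN2b (SD, n = 2). The genes most like each D cyclin over the 10 libraries, by Pearson r of log2 CPM among 12211 genes, were *Calhm2* (0.92), *2310040G24Rik* (0.92) and *Neurl3* (0.91) for *Ccnd1*. They were *Gm16576* (0.92), *Bace1* (0.90) and *Mpp7* (0.87) for *Ccnd2*, and *Dbnl* (0.94), *Trim11* (0.92) and *Ndufb7* (0.91) for *Ccnd3*. The D cyclins resembled each other less, with r of -0.32 for *Ccnd1* and *Ccnd2*, -0.34 for *Ccnd1* and *Ccnd3* and 0.37 for *Ccnd2* and *Ccnd3*. These correlations describe 10 libraries of 4 groups, which share group differences and cell makeup.

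Among the CIP/KIP inhibitors, *Cdkn1a* (chr17:29090976-29100727, plus strand), the p21 gene whose promoter windows are shown above, had its lowest level in DN1. It stood at 161, 149, 186 and 129 CPM for the control, 40.3 and 14.01 for DN1, 87.9 and 81.6 for DN2a, and 112 and 88.5 for DN2b. The 4 groups formed an order of DN1, DN2a, DN2b and control with no overlap between any of them. DN2a and DN2b nearly met, at 87.9 and 88.5 CPM, and 30.6% of all tested genes did not overlap between these 2 stages. In DN1 the log2FC over the control was -2.84 ± 0.42 (adjusted p = 0.00174), a call kept without any 1 library. It was -3.69 without DN1 replicate 1, the DN1 library with more granule, mast cell and erythroid RNA, and -2.30 without DN1 replicate 2. Against the control, the values of -0.97 ± 0.38 in DN2a (adjusted p = 0.0601) and -0.73 ± 0.37 in DN2b (adjusted p = 0.139) did not pass. The DN2a value was called under 2 of 8 other settings of the processing, and the DN2b value under none of them. The part of the myeloid RNA of the control in the difference from DN1 was not tested. *Cdkn1a* overlaps a transcript without a gene symbol on the opposite strand, around its downstream start, and reads of that overlap are uncertain.

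From DN1 to DN2b, *Cdkn1a* rose by a log2FC of 2.11 ± 0.43 (adjusted p = 0.0456), with log2 CPM ratios of 1.48 between the libraries numbered 1 and 2.66 between those numbered 2. The call was close to the threshold. In a fit of the 6 Delta1 libraries it was lost both with the isolate as a replicate block (2.19, adjusted p = 0.0658) and without the block (2.10, adjusted p = 0.0873). Of the 10 refits, each with a library left out, only the one without DN1 replicate 1 kept it (2.97, adjusted p = 0.0284). Without DN1 replicate 2 the log2FC was 1.58 (adjusted p = 0.0638), without DN2b replicate 1 it was 1.90 (0.230), and without DN2b replicate 2 it was 2.30 (0.114). Without any 1 DN2a or control library it stayed close to 2.11, with adjusted p from 0.0536 to 0.0847. DN2a versus DN1 gave 1.87 ± 0.43 (adjusted p = 0.139) and DN2b versus DN2a 0.24 ± 0.42 (adjusted p = 1), neither of them called by edgeR. DESeq2 did call *Cdkn1a* in DN2a versus DN1 (adjusted p = 0.00277).

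*Cdkn1b* (chr6:134920401-134925513, plus strand), for p27, passed in no comparison. It stood at 18.0, 29.5, 34.9 and 45.9 CPM for the control, 22.6 and 28.9 for DN1, 22.1 and 33.3 for DN2a, and 28.6 and 50.4 for DN2b. Each stage overlapped the control. The log2FC was -0.54 ± 0.36, -0.25 ± 0.35 and 0.25 ± 0.35 in DN1, DN2a and DN2b over the control, and 0.79 ± 0.41 in DN2b versus DN1 (adjusted p = 0.449). The read ratio of *Cdkn1a* to *Cdkn1b* was 2.81 to 8.90 for the control, 0.484 to 1.78 for DN1, 2.45 to 3.97 for DN2a and 1.76 to 3.91 for DN2b. DN1 replicate 2 was the only library with fewer *Cdkn1a* than *Cdkn1b* reads. Per kilobase, the 2 genes summed to 64.5 ± 8.0 CPM for the control (SD, n = 4), 15.6 ± 5.8 for DN1, 37.3 ± 0.11 for DN2a and 45.6 ± 2.7 for DN2b (SD, n = 2).

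**Figure D3:**
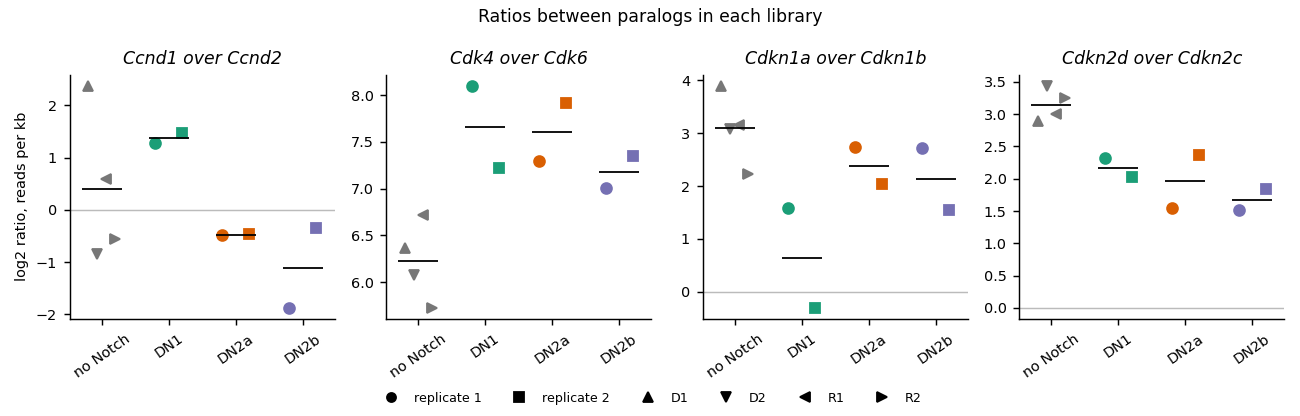
Log2 ratio of reads per kilobase between paralogs (vertical axis) in each library, by group, with a bar at the group mean. *Ccnd1* lies above *Ccnd2* in DN1 (1.27 and 1.47) and below it in DN2a and DN2b, and the control libraries do not overlap the Delta1 libraries for *Cdk4* over *Cdk6* or *Cdkn2d* over *Cdkn2c*.

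Of the INK4 inhibitors, *Cdkn2d* (chr9:21288410-21291407, minus strand), for p19INK4d, was the most abundant. It stood at 48.5, 83.1, 81.9 and 87.0 CPM for the control, 64.6 and 27.4 for DN1, 28.4 and 52.6 for DN2a, and 27.6 and 36.1 for DN2b. The DN2b libraries lay under all 4 control libraries, and DN1 and DN2a overlapped the control through its low library D1. In DN2b the log2FC was -1.31 ± 0.40 (adjusted p = 0.0260), a 2.48-fold fall. The call was lost without DN2b replicate 1 (-1.15, adjusted p = 0.160), DN2b replicate 2 (-1.48, 0.0791) or R1 (-1.28, 0.0536), and kept without any other single library. The values of -0.99 ± 0.39 in DN1 (adjusted p = 0.0802) and -0.95 ± 0.39 in DN2a (adjusted p = 0.0734) did not pass by edgeR. DESeq2 called *Cdkn2d* in both (adjusted p = 0.0361 and 0.0363). Between the Delta1 stages its log2FC ran from -0.36 to 0.05.

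*Cdkn2c* (chr4:109660876-109667189, minus strand), for p18INK4c, stood at 11.9, 13.9, 18.6 and 16.6 CPM for the control, 23.5 and 12.3 for DN1, 17.7 and 18.5 for DN2a, and 17.6 and 18.4 for DN2b. The groups overlapped, and its log2FC over the control lay between -0.05 and 0.18, with SE of 0.28. In reads, *Cdkn2d* exceeded *Cdkn2c* 4.09 to 5.97 times in the control and 1.57 to 2.85 times in the 6 Delta1 libraries, with no overlap. The *Cdkn2c* share of INK4 reads per kilobase was 9.98% ± 1.44 for the control (SD, n = 4) and 17.7% ± 2.5, 20.4% ± 6.1 and 22.7% ± 2.4 for DN1, DN2a and DN2b (SD, n = 2). *Cdkn2a* (chr4:89274471-89294653, minus strand) held only 5 to 96 counts per library, 0.277 to 2.71 CPM, and its counts pool the p16INK4a and p19ARF transcripts. Its log2FC over the control, -0.23 ± 0.96, -1.14 ± 1.02 and 0.23 ± 0.95, was within its error in DN1 and DN2b and about as large as its error in DN2a. Its libraries differed widely within a group, with 59 and 6 counts in DN1, and a change was not detectable with these counts and this spread. The related inhibitor genes *Cdkn2b* (0 to 0.928 CPM, not tested) and *Cdkn1c* (0.309 to 1.70 CPM, not called in any stage over the control) were low. They had 0 to 21 and 5 to 35 counts per library.

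**Figure D4:**
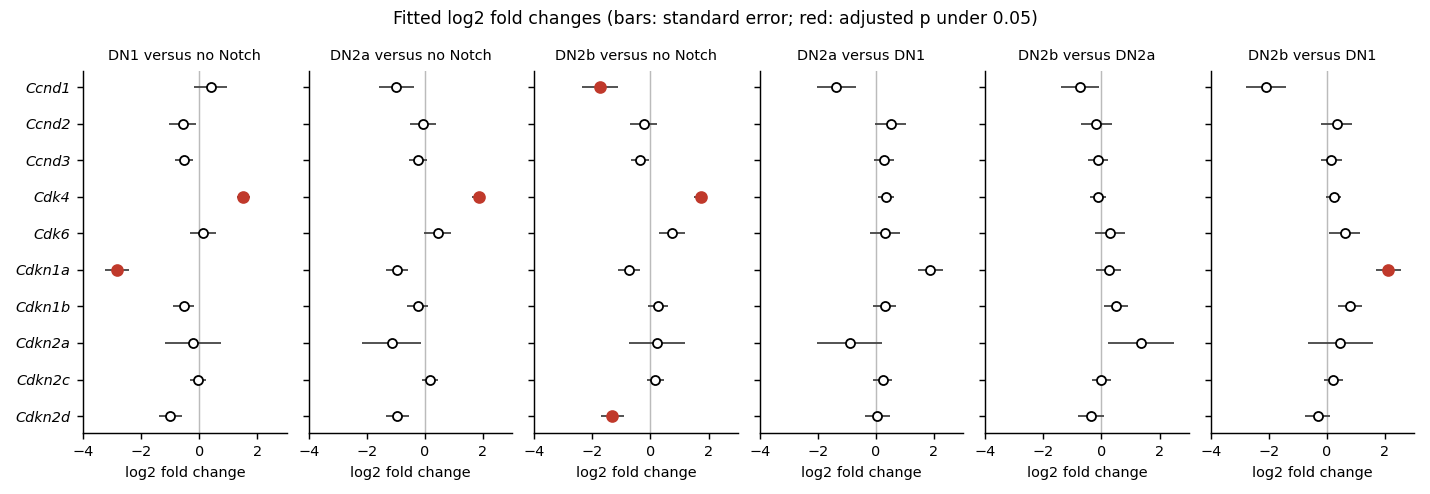
Fitted log2FC (horizontal axis) of the members in the 6 comparisons, with bars for the SE and filled red points for adjusted p under 0.05. The red points are *Cdk4* in the 3 comparisons with the control, *Cdkn1a* in DN1 versus control and DN2b versus DN1, and *Ccnd1* and *Cdkn2d* in DN2b versus control.

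Against the control, 2 of 10 members were called in DN1, 1 in DN2a and 3 in DN2b, beside 31.4%, 45.5% and 42.5% of all tested genes, so that none of these shares lay above that of genes at large. Without either DN1 library, 3 members were called in DN2a, *Cdkn1a* and *Cdkn2d* being added, and without R2 there were 2, while without either DN2b library or R1 only *Cdk4* was called in DN2b. Between stages, 0 members were called in DN2a versus DN1, 0 in DN2b versus DN2a and 1 in DN2b versus DN1, beside 0.401%, 0% and 1.91% of genes. In DN2b versus DN2a edgeR called 0 genes of any kind, with 335 genes and 0 members at an unadjusted p under 0.05 and 29 genes called by DESeq2. In DN2a versus DN1, 1 member (*Cdkn1a*) had an unadjusted p under 0.05, and DESeq2 called this 1 member. Groups did not overlap for 2, 2 and 4 members in DN1, DN2a and DN2b against the control, beside 50.7%, 61.6% and 57.7% of genes. They did not overlap for 2, 3 and 2 members in DN2a versus DN1, DN2b versus DN2a and DN2b versus DN1, beside 43.7%, 30.6% and 45.6%. The median log2FC of the members against the control was -0.38, -0.25 and -0.03 in DN1, DN2a and DN2b, and that of all genes 0.01, -0.05 and -0.05. The comparisons with the control share its 4 libraries.

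Scaling matters most for DN1. Without TMM (trimmed mean of M-values) scaling the median log2FC of all genes in DN1 versus control moved from 0.01 to 0.27, and the calls moved from 1753 higher and 2081 lower to 2585 higher and 1627 lower. *Cdk4* then stood at 1.75 and *Cdkn1a* at -2.52, both still called and both far from that shift. The calls of *Cdkn1a* in DN2b versus DN1 (1.88, adjusted p = 0.0646) and of *Ccnd1* in DN2b versus control (-1.61, adjusted p = 0.0506) were lost with that scaling.

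The genes that work with the members were read from the same fit, in lists chosen by function. Of 24 tested G1/S partners, 6 were higher and 1 lower in DN1 than in the control, 8 and 2 in DN2a, and 8 and 3 in DN2b (of all tested genes, DN1 had 14.3% higher and 17% lower, DN2a 21.2% and 24.3%, and DN2b 19.9% and 22.5%), with a median log2FC of 0.42, 0.22 and 0.05. *Cdk7*, *Ccnh* and *Mnat1*, the 3 subunits of the kinase that activates other CDKs, rose together: *Ccnh* by 0.93 ± 0.19, 1.61 ± 0.19 and 1.51 ± 0.19 and *Mnat1* by 0.82 ± 0.22, 1.59 ± 0.21 and 1.51 ± 0.21 in DN1, DN2a and DN2b (adjusted p at most 0.0190). *Cdk7* rose by 0.81 ± 0.18, 1.13 ± 0.18 and 0.96 ± 0.18 (adjusted p at most 0.00990). *Cks1b*, a subunit that assists SKP2 in removing p27, rose by 1.22 ± 0.28 in DN1 and *E2f6*, a repressive E2F, by 1.29 ± 0.29. *Ccne2*, for cyclin E2, the partner of CDK2, rose in DN2a (1.81 ± 0.55, adjusted p = 0.0244) and DN2b (1.75 ± 0.55, adjusted p = 0.0296). *Ccne1* and *Cdk2* had log2FC values of -0.35 to 0.16 and 0.24 to 0.33 over the control and did not pass.

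The pocket proteins and E2F factors did not move as 1 group. *Rbl1*, for the RB relative p107, rose by 0.87 ± 0.27, 1.14 ± 0.27 and 0.82 ± 0.27 in DN1, DN2a and DN2b (adjusted p = 0.0367, 0.00807 and 0.0350). *Rb1* stood at -0.68 ± 0.25, -0.65 ± 0.24 and -0.58 ± 0.24 without passing (adjusted p = 0.0596, 0.0533 and 0.0831), and *Rbl2* lay between -0.02 and 0.25. *E2f2*, an activating E2F, fell in DN1 by 1.69 ± 0.32 on the log2 scale, and by 1.77 ± 0.33 and 1.49 ± 0.32 in DN2a and DN2b (adjusted p at most 0.00591). *E2f1* stood at -0.28, -0.27 and -0.63 and did not pass. *E2f7*, a repressive E2F, stood at 10.6 to 22.6 CPM for the control, 8.33 to 15.5 for DN1, 1.58 to 2.004 for DN2a and 1.54 to 1.56 for DN2b. Its log2FC over the control was -3.09 ± 0.42 in DN2a and -3.30 ± 0.43 in DN2b, and in DN2b versus DN1 it was the 1 list gene of this group to pass (-2.73 ± 0.45, adjusted p = 0.0205). *E2f8*, its closest relative, fell in DN2b (-2.04 ± 0.55, adjusted p = 0.0165).

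Many of the replication genes driven by E2F rose over the control. Of 18, 11 were higher in DN1, 15 in DN2a and 12 in DN2b than in the control and none was lower, beside 14.3%, 21.2% and 19.9% of all tested genes that were higher, with a median log2FC of 1.05, 1.27 and 1.03. *Mcm6*, part of the replicative helicase, rose by 1.42 ± 0.28, 1.72 ± 0.28 and 1.50 ± 0.28. *Pola1*, of the primase complex, rose by 1.36 ± 0.31, 1.72 ± 0.31 and 1.34 ± 0.31. *Mcm7*, of the same helicase as *Mcm6*, rose by 1.31 ± 0.32, 1.56 ± 0.32 and 1.23 ± 0.32, and *Rrm1*, of ribonucleotide reductase, by 1.24 ± 0.30, 1.67 ± 0.30 and 1.31 ± 0.30. None of the 18 was called between Delta1 stages (edgeR, adjusted p threshold of 0.05). Of 14 mitosis genes, 6 were higher in DN2a (21.2% of all genes), among them *Ccnb1* (1.11 ± 0.24), *Cdk1* (1.05 ± 0.24), *Birc5* (0.93 ± 0.22) and *Bub1* (0.89 ± 0.28), and none was called in DN1 or DN2b. Other genes of the list had negative values that did not pass: *Mki67* stood at -1.59 ± 1.26 in DN2a and -3.05 ± 1.38 in DN2b, *Cenpe* at -1.34 ± 1.117 and -2.58 ± 1.21, and *Cenpf* at -0.89 ± 1.05 and -2.51 ± 1.17. Control libraries differed widely in this list, with *Mki67* at 25.8, 8.54, 192 and 404 CPM in D1, D2, R1 and R2.

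Most of the called p53 targets other than *Cdkn1a* were lower than in the control. Of 13 tested, 2 were lower in DN1 (*Sesn2* at -1.85 ± 0.37 and *Mdm2* at -1.13 ± 0.31), 5 lower in DN2a and 4 lower and 1 higher in DN2b. Of all tested genes, 17%, 24.3% and 22.5% were lower in these stages, so the share in DN1 was close to that of genes at large. *Zmat3*, for a zinc finger RNA-binding protein, stood at 5.42 to 22.7 CPM in the control, 0.474 to 0.790 in DN2a and 1.17 to 3.64 in DN2b, and fell, with a log2FC of -4.77 ± 1.02 (adjusted p = 0.00539) and -2.85 ± 0.90 (adjusted p = 0.0302) in DN2a and DN2b. *Btg2*, an antiproliferative gene, fell in DN2a (-1.80 ± 0.47, adjusted p = 0.0133), and *Sesn2*, a stress-induced sestrin, in DN2a (-1.002 ± 0.35) and DN2b (-1.27 ± 0.36). *Mdm2*, the p53 ubiquitin ligase, stayed down at -1.04 ± 0.31 in both DN2a and DN2b. *Pmaip1*, a BH3-only death gene, stood at -1.003 ± 0.28 and -1.11 ± 0.28 there, and *Trp53inp1* was the gene that rose in DN2b (2.04 ± 0.44, adjusted p = 0.00602). No target in the list was called between Delta1 stages by the edgeR test. *Trp53inp1* had a log2FC of 1.48 ± 0.54 in DN2b versus DN1 (adjusted p = 0.246), at 39.3 to 91.3 CPM in DN1 and 113 to 215 in DN2b with no overlap.

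**Figure D5:**
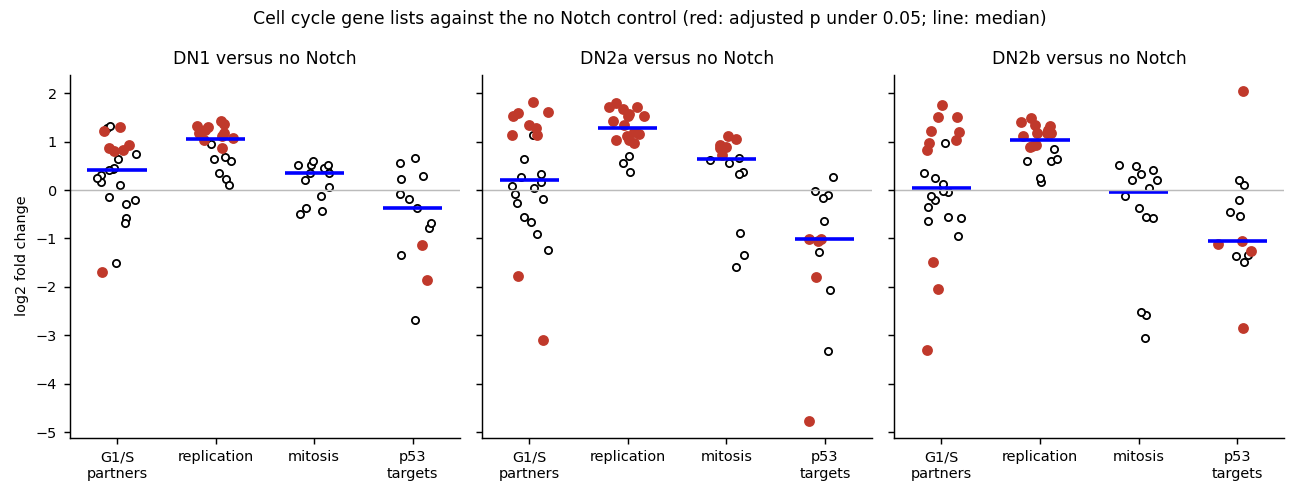
Log2FC against the no Notch control (vertical axis) of the tested genes of 4 lists in DN1, DN2a and DN2b, with red points for adjusted p under 0.05 and a line at the list median. Replication genes have medians of 1.05, 1.27 and 1.03 in the 3 stages, and p53 targets have medians of -0.38, -1 and -1.04.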

How the data were processed

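RNA-seq counts of 10 mouse libraries were used: 2 each of DN1, DN2a and DN2b and 4 of the no Notch control. Before deposit, the authors mapped 36 bases per read (first end, from its beginning) on mm10 by TopHat. Raw htseq-count counts (HTSeq 0.6.1p1, intersection-strict) were deposited by symbol, and each library's table ends in 5 summary lines. TopHat2 2.12 and Cufflinks 2.2.1 are also named in the submitters' processing notes. The gene annotation and the strand setting of the counting are not given in the sources used here. Reads aligned to more than 1 place (16.4% to 30.1% of the tally) were assigned to no gene. The summary lines were dropped, and 27 gene symbols had been turned into dates.

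CPM is the count of a gene scaled to the total reads on genes of its library. Testing required 1 CPM or more in 2 or more libraries. A single edgeR 4.0.16 fit in R 4.3.3 took every library, in 4 groups (TMM scaling, quasi-likelihood test, prior count 0.125). P-values of the 12221 genes were adjusted together by Benjamini-Hochberg, with a threshold of 0.05. The SE is the size of the log2FC divided by the square root of F. Levels per kilobase used exon bases of the GENCODE vM21 basic set, and coordinates are those of vM21 on mm10. Promoter sequences are those of RefSeq. Floors cover counting error only. Figures and summaries used Python 3.11.15 with numpy 2.4.6, pandas 2.3.3 and matplotlib 3.10.9. The fit was also run on simulated counts drawn with a single spread setting for all genes. That run cannot speak to genes whose spread differs, as it does in these libraries.

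The members and lists were chosen with earlier results of these data known. Genes named are the members, up to 4 called genes of largest change per list and comparison, *Cdkn1c*, *Cdkn2b*, *Ccne1*, *Ccne2*, *Cdk2*, *Rb1*, *Rbl1*, *Rbl2*, *E2f1* and *E2f2*, and the 3 genes most like each D cyclin. A gene that the rule names is not reported here. *Il2ra*, *Tcf7*, *Notch1*, *Elane*, *Ngp*, *Mmp12*, *Msr1*, *Mcpt1*, *Mcpt8*, *Cma1*, *Cpa3*, *Cenpe*, *Cenpf* and *Mki67* were named after their values were seen. The same holds for the repeated values of list genes in other comparisons. Alternatives were DESeq2 1.42.0, scaling to library size, other filters, only the groups compared, a prior count of 2, parts of the control, single libraries left out, the date in the labels as a replicate block (replicate 1 against replicate 2), and shares by reads or by all annotated exons (the last added after seeing the data). The DN2a and DN2b libraries of a number carry the same date in their labels and DN1 an earlier one of that year, and deviations of same-numbered libraries correlated at 0.277 for DN2a and DN2b, 0.0792 for DN1 and DN2a and 0.298 for DN1 and DN2b. The study's methods say that each isolate gave all 3 stages, and the numbers were taken as isolates from the dates. The control has no such date.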

Additional observations from a re-analysis of the deposited data

Results flagged for a closer look

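*Cdkn2d* in the no Notch control was flagged because library D1, at 48.5 CPM, stood far below the other 3 (81.9 to 87.0 CPM) by Dixon's criterion for 4 values, which chance meets in about 1 of 20 groups. All 10 members were checked in this way, so a chance flag among them is less rare than that. Without D1 the log2FC of *Cdkn2d* in DN2b versus control was -1.45 (edgeR adjusted p = 0.0229), against -1.31 with it.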

How the results depend on the processing

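*Cdkn2a* had the fewest counts of the members (5 to 96 per library), and each stage had 2 libraries. *Cdk4* against the control and *Cdkn1a* in DN1 versus control were called under all 8 other settings and without any single library. Among these settings, a prior count of 2 gave the same adjusted p-values as the main fit, so its calls could not differ. *Cdkn1a* in DN2b versus DN1 was called under 4 of 8 other settings, *Ccnd1* in DN2b versus control under 4 of 8 and *Cdkn2d* there under 7 of 8. The cause of these losses was not tested.

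With control libraries D1 and D2 only, edgeR called 2329 genes in DN1 versus control, and 3264 genes and 1 member (*Cdk4*) in DN2b versus control, and the log2FC in DN1 versus control turned to -0.018 for *Ccnd1*, 0.84 for *Cdkn2a* and 0.026 for *Cdkn2c*. With R1 and R2 only, *Cdkn2a* in DN2b versus control turned to -0.37. Scaling to library size only turned *Cdkn2a* to 0.032 and *Cdkn2c* to 0.23 in DN1 versus control, *Cdkn2d* to -0.19 in DN2a versus DN1 and *Ccnd3* to -0.068 in DN2b versus DN1, where it called 0 members. DESeq2 called 3 members in DN2a versus control, 1 member and 474 genes in DN2a versus DN1, 2 members and 822 genes in DN2b versus DN1, and 29 genes in DN2b versus DN2a, where *Cdkn2c* turned to 0.0091. With only the compared groups in the fit there were 2 members in DN2a versus control, 25 genes in DN2a versus DN1, 0 members and 80 genes in DN2b versus DN1, and *Cdkn2c* turned to 0.014 in DN2b versus DN2a. *Cdkn2a* was not tested in DN2a versus DN1 in that fit. Without a filter there were 101 genes in DN2a versus DN1 and 1 in DN2b versus DN2a.

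With the replicate number as a replicate block in the 6 Delta1 libraries, 0 members were called in DN2b versus DN1 (*Cdkn1a* at 2.19, adjusted p = 0.0658), with 58 genes in DN2a versus DN1, 0 in DN2b versus DN2a and 233 in DN2b versus DN1. Without the block the same libraries gave 0 members in DN2b versus DN1 (*Cdkn1a* at 2.10, adjusted p = 0.0873), with 32, 0 and 187 genes. The block changed no call on a member in these 6 libraries.

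Leaving out each library in turn gave 2 to 3 members and 1867 to 4163 genes in DN1 versus control, 1 to 3 and 2686 to 6016 in DN2a versus control, and 1 to 4 and 2683 to 5674 in DN2b versus control. It gave 0 members and 0 to 229 genes in DN2a versus DN1, 0 and 0 to 1 in DN2b versus DN2a, and 0 to 1 and 51 to 383 in DN2b versus DN1. The lowest counts against the control came without DN1 replicate 2, DN2a replicate 1 and DN2b replicate 1. Among uncalled members, 35 of these log2FC values changed sign. In DN1 versus control these were *Ccnd1* (-0.46 to 0.95), *Cdk6* (-0.69 to 0.64), *Cdkn2a* (-2.28 to 0.58) and *Cdkn2c* (-0.51 to 0.30). In DN2a versus control these were *Ccnd2* (-0.28 to 0.19) and *Cdkn1b* (-0.61 to 0.053). In DN2b versus control these were *Ccnd2* (-0.49 to 0.016), *Cdkn1b* (-0.17 to 0.58) and *Cdkn2a* (-0.099 to 0.75). In DN2a versus DN1 these were *Ccnd3* (-0.017 to 0.63), *Cdk6* (-0.20 to 1.13), *Cdkn1b* (-0.069 to 0.60), *Cdkn2a* (-1.73 to 1.14), *Cdkn2c* (-0.11 to 0.69) and *Cdkn2d* (-0.51 to 0.70). In DN2b versus DN2a these were *Ccnd2* (-0.43 to 0.048), *Ccnd3* (-0.52 to 0.19), *Cdk4* (-0.29 to 0.023), *Cdk6* (-0.068 to 0.64), *Cdkn2c* (-0.078 to 0.059) and *Cdkn2d* (-0.76 to 0.19). In DN2b versus DN1 these were *Ccnd2* (-0.14 to 1.06), *Ccnd3* (-0.25 to 0.50), *Cdkn2a* (-0.34 to 2.51), *Cdkn2c* (-0.12 to 0.68) and *Cdkn2d* (-0.76 to 0.34).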
